A study of Mus musculus with 16 samples.

Results

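The genes described here are the receptors and ligands of the platelet-derived growth factor (PDGF) family. They are the receptor genes Pdgfra and Pdgfrb and the ligand genes Pdgfa, Pdgfc and Pdgfd, chosen by symbol through their Ensembl identifiers. No measured value entered that rule, but earlier results of these data were known when the genes were chosen. These are 5 of the 21804 genes in the count table, and all 5 are among the 15286 genes that passed the filter on low counts over the 16 libraries. Pdgfb itself, the gene altered in these mice, was not analysed here.

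PDGFs are secreted dimers that bind tyrosine kinase receptors and switch on the Ras-MAP kinase, phosphoinositide 3-kinase and phospholipase C pathways. PDGF-A and PDGF-C act mainly through the alpha receptor, PDGF-D acts mainly through the beta receptor, and PDGF-B can use both. In the brain the alpha receptor is best known from oligodendrocyte precursors and perivascular fibroblasts. The beta receptor is known from pericytes and smooth muscle cells, the mural cells of the vessel wall, which are recruited by PDGF-B from the endothelium.

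The mice were C57BL/6, 4 months old, and all of them carried the Pdgfb retention allele, which lacks the motif that tethers PDGF-B to heparan sulfate around the vessel. The controls carried it on 1 chromosome (Pdgfb ret/wt) and the others on both (Pdgfb ret/ret), so no group was free of the allele. Each of 4 ret/wt and 4 ret/ret animals gave 1 library of polyadenylated RNA from cortex and 1 from thalamus, which makes 4 groups of 4 libraries. The ret/ret thalamus pieces were autofluorescent calcifications cut out under a stereomicroscope, while the ret/wt thalamus was the same region without them, so genotype and calcified tissue cannot be told apart in the thalamus. Per the labels, the cortex does not calcify in either genotype. Each animal entered both the thalamus and the cortex comparison, which are therefore not independent of each other.

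Library totals ran from 13415438 to 29135220 estimated counts, and 3 counts, the lowest level read as detected, corresponded to 0.103 to 0.224 CPM, the usual unit of counts scaled to a common library total. Mitochondrial genes took 3.22% to 12.1% of the counts, with the highest share in the ret/ret thalamus. The tissue labels could be checked with neuron markers. In ret/wt animals 7 of 9 thalamus neuron genes tested were higher in thalamus and 8 of 10 cortex neuron genes were lower (quasi-likelihood test of edgeR, Benjamini-Hochberg). In ret/ret animals 3 of 10 thalamus neuron genes were higher and 8 of 10 cortex neuron genes were lower by the same test. Of all genes, 12.6% passed in ret/wt and 9.50% in ret/ret animals, in both directions together. Some libraries stood apart. A sum of 5 cerebellum genes was 1980 CPM in ret/ret cortex replicate 2, 845.9 CPM in ret/wt cortex replicate 3 and 58.1 CPM in ret/ret thalamus replicate 4, against 2.19 to 7.16 CPM elsewhere, and Gabra6 and Pcp2 were at 0 in 2 libraries each. The choroid plexus sum of 10 genes was 1199 CPM in ret/wt cortex replicate 4 and 19.2 to 93.4 CPM elsewhere. In the thalamus, the summed level of 10 thalamus neuron markers was 2539 CPM in ret/wt thalamus replicate 3 and 2848 CPM in ret/ret thalamus replicate 2, against 595.5 to 1208 CPM in the other thalamus libraries. Values without the cortex libraries that stood apart are given beside the cortex results of the PDGF genes. Values without ret/wt replicate 3 and ret/ret replicate 2 are given at the end for Pdgfd, Pdgfrb and Pdgfa.

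Per kilobase of exon, Pdgfa had the highest level of the 5 genes in every group and Pdgfra the next. In ret/wt cortex Pdgfa stood at 9.97 ± 1.27 CPM per kilobase (SD, n = 4) and Pdgfra at 7.15 ± 1.40 (SD, n = 4), and their ranges overlapped. Pdgfrb followed at 3.09 ± 1.09 CPM per kilobase (SD, n = 4), with Pdgfc at 1.61 ± 0.0873 (SD, n = 4) and Pdgfd at 1.23 ± 0.518 (SD, n = 4), whose ranges also overlapped. The order at the lower end differed between groups. In ret/wt thalamus Pdgfd stood at 2.04 ± 0.390 CPM per kilobase (SD, n = 4), above Pdgfc at 1.11 ± 0.174 (SD, n = 4) and below Pdgfrb at 3.11 ± 0.822 (SD, n = 4). In both ret/ret groups the mean of Pdgfd lay above that of Pdgfrb. The levels in ret/ret thalamus were 3.51 ± 0.471 CPM per kilobase for Pdgfd (SD, n = 4) and 2.19 ± 1.22 for Pdgfrb (SD, n = 4), and in ret/ret cortex 3.26 ± 1.74 for Pdgfd (SD, n = 4) and 2.001 ± 0.207 for Pdgfrb (SD, n = 4). The ranges of the pair overlapped in both groups. With the longest coding transcript in place of all exons the order of the means was the same in each group, except that in ret/ret cortex Pdgfc stood at 2.03 CPM per kilobase and Pdgfrb at 2.02.

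**Figure D1:**
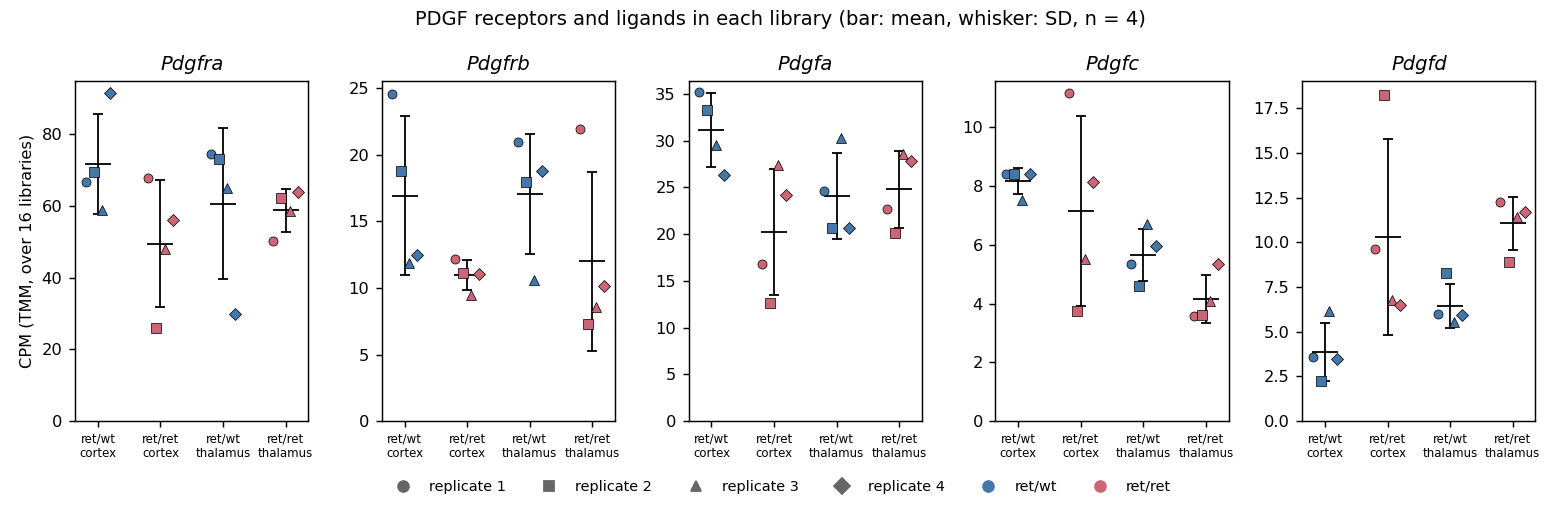
Level of each PDGF gene (y axis, CPM scaled by TMM over the 16 libraries, from 0) in the 4 groups (x axis), 1 point per library with its replicate number as the symbol, the mean as a bar and the SD as a whisker (n = 4). Pdgfd is the gene whose ret/ret points lie above the ret/wt points in both regions, and ret/ret cortex replicate 2 holds the lowest Pdgfra, Pdgfa and Pdgfc and the highest Pdgfd of its group.

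Pdgfra (ENSMUSG00000029231, chromosome 5, 75152292 to 75198215, + strand in GENCODE M21 on GRCm38) encodes the alpha receptor. In ret/wt cortex it was at 66.8, 69.3, 58.9 and 91.5 CPM in replicates 1 to 4, and in ret/ret cortex at 67.8, 26.0, 48.0 and 56.2 CPM. In ret/wt thalamus it was at 74.6, 73.2, 64.9 and 29.8 CPM, and in ret/ret thalamus at 50.4, 62.1, 58.7 and 63.8 CPM. Replicate 2 was the lowest in ret/ret cortex and replicate 4 the lowest in ret/wt thalamus, and the genotypes overlapped in both regions. The log2 fold change of ret/ret over ret/wt was -0.52 ± 0.28 (SE) in cortex and -0.01 ± 0.26 (SE) in thalamus, with unadjusted p = 0.093 and unadjusted p = 0.983 in edgeR's quasi-likelihood test. Without ret/ret cortex replicate 2 the cortex value was -0.31, without the 3 cortex libraries with cerebellum or choroid plexus genes it was -0.23, and without ret/wt thalamus replicate 4 the thalamus value was -0.22. In ret/wt thalamus replicate 4 the summed level of 18 fibroblast markers was 1240 CPM, against 491 to 640.2 in the other 3 libraries, and that of 16 oligodendrocyte precursor markers was 577.1 CPM against 643.5 to 797.7. The part of these levels in the Pdgfra value was not tested. In bulk tissue, fewer cells of a type and less RNA per cell cannot be told apart. Exons of Pdgfra overlap those of Mir7025 on the same strand and of Gm42802 and Gm42803 on the other, and the sources used here do not say whether strand was used in counting.

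Pdgfrb (ENSMUSG00000024620, chromosome 18, 61045150 to 61085061, + strand) encodes the beta receptor of mural cells. In ret/wt cortex it was at 24.6, 18.8, 11.9 and 12.5 CPM in replicates 1 to 4, and in ret/ret cortex at 12.2, 11.1, 9.46 and 11.1 CPM. For the thalamus of ret/wt animals the values were 20.9, 17.9, 10.6 and 18.8 CPM, and in ret/ret thalamus they were 21.9, 7.33, 8.58 and 10.2 CPM. In thalamus 3 of the 4 ret/ret libraries lay below all ret/wt libraries and replicate 1 lay above them all. In cortex the highest ret/ret library, at 12.2 CPM, lay above the lowest ret/wt library alone, at 11.9 CPM. The log2 fold change was -0.61 ± 0.26 (SE) in cortex, with a 95% confidence interval of -1.19 to -0.03 and unadjusted p = 0.0414 in edgeR's quasi-likelihood test. In thalamus it was -0.47 ± 0.37 (SE), with an interval of -1.29 to 0.36 and unadjusted p = 0.235. Single libraries moved both values by more than 1.5 times. Without ret/ret thalamus replicate 1 the thalamus value was -0.95 (unadjusted p = 0.00847, edgeR) and without ret/ret thalamus replicate 2 it was -0.29. Without ret/wt cortex replicate 1 the cortex value was -0.37 (unadjusted p = 0.155, edgeR). Without the 3 cortex libraries that held cerebellum or choroid plexus genes it was -0.98 (unadjusted p = 0.00417, edgeR). The thalamus libraries with the highest neuron sums held the lowest Pdgfrb of their groups, 10.6 and 7.33 CPM. They also held the lowest sums of 19 mural markers, a list of 20 without Zic1, at 157.5 and 86.9 CPM. With Zic1, which was highest in these libraries among the thalamus libraries, the sums were 334.8 and 253.3 CPM and not the lowest. The part of these levels in the Pdgfrb value was not tested.

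Pdgfa (ENSMUSG00000025856, chromosome 5, 138976014 to 138997370, - strand) encodes PDGF-A, the ligand that drives oligodendrocyte precursors. In ret/wt cortex it was at 35.2, 33.2, 29.5 and 26.3 CPM in replicates 1 to 4, and in ret/ret cortex at 16.8, 12.6, 27.4 and 24.2 CPM. In ret/wt thalamus it was at 24.6, 20.6, 30.3 and 20.6 CPM, and in ret/ret thalamus at 22.7, 20.1, 28.6 and 27.8 CPM. Only 1 ret/ret cortex library reached into the ret/wt range, while in thalamus the genotypes covered nearly the same range. The log2 fold change was -0.60 ± 0.24 (SE) in cortex, with unadjusted p = 0.0344 in edgeR's quasi-likelihood test. In thalamus it was 0.08 ± 0.20 (SE) with unadjusted p = 0.718. The thalamus value was 0.30 without ret/wt replicate 3 and ret/ret replicate 2, whose thalamus libraries had the highest neuron sums. Without ret/ret cortex replicate 2, the library with the highest cerebellum sum, the cortex value was -0.43 (unadjusted p = 0.0685, edgeR), and without all 3 cortex libraries with cerebellum or choroid plexus genes it was -0.57 (unadjusted p = 0.0485, edgeR). Exons of Pdgfa overlap those of 6330403L08Rik on the other strand.

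Pdgfc (ENSMUSG00000028019, chromosome 3, 81036416 to 81214040, + strand) encodes PDGF-C, which is secreted in a latent form and activated by tissue plasminogen activator. In ret/wt cortex it was at 8.40, 8.40, 7.52 and 8.42 CPM in replicates 1 to 4, and in ret/ret cortex at 11.2, 3.75, 5.51 and 8.14 CPM. For the thalamus of ret/wt animals the values were 5.35, 4.60, 6.70 and 5.94 CPM, and in ret/ret thalamus they were 3.59, 3.62, 4.07 and 5.33 CPM. The 4 ret/wt cortex libraries lay close together and the 4 ret/ret cortex libraries spread on both sides of them. In thalamus 3 of 4 ret/ret libraries lay below all ret/wt libraries. The log2 fold change of ret/ret over ret/wt was -0.41 ± 0.28 (SE) in thalamus and -0.18 ± 0.33 (SE) in cortex, with unadjusted p = 0.166 and unadjusted p = 0.591 in edgeR's quasi-likelihood test. Without ret/ret cortex replicate 2 the cortex value turned to 0.03, and without the 3 cortex libraries with cerebellum or choroid plexus genes it was -0.01. Exons of Pdgfc overlap those of Gm16000 on the other strand.

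Pdgfd (ENSMUSG00000032006, chromosome 9, 6168584 to 6378850, + strand) encodes PDGF-D, a latent ligand of the beta receptor that is activated by urokinase and matriptase. In ret/wt cortex it was at 3.61, 2.27, 6.15 and 3.47 CPM in replicates 1 to 4, and in ret/ret cortex at 9.66, 18.2, 6.75 and 6.51 CPM. In ret/wt thalamus it was at 6.00, 8.26, 5.56 and 5.94 CPM, and in ret/ret thalamus at 12.2, 8.90, 11.4 and 11.7 CPM. In each region all 4 ret/ret libraries lay above all 4 ret/wt libraries, with neighbours at 6.15 and 6.51 CPM in cortex and at 8.26 and 8.90 CPM in thalamus. These levels rested on 31 to 418 estimated counts per library. The log2 fold change was 1.42 ± 0.42 (SE) in cortex, with a 95% confidence interval of 0.48 to 2.37, and 0.81 ± 0.23 (SE) in thalamus, with an interval of 0.29 to 1.33. The unadjusted p was 0.0075 in cortex and 0.00582 in thalamus, and the adjusted p was 0.967 and 0.9998 (edgeR's quasi-likelihood test, Benjamini-Hochberg), so neither passed over all genes. No other annotated gene shares exons with Pdgfd.

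The ret/ret cortex libraries differed in Pdgfd by more than the other groups did. Replicate 2, at 18.2 CPM, held the cerebellum genes named above, and without it the cortex log2 fold change was 0.99 (unadjusted p = 0.0242, edgeR). Without the 3 cortex libraries that held cerebellum or choroid plexus genes it was 1.39 (unadjusted p = 0.00779, edgeR). Leaving out each of the 8 libraries in turn gave 0.99 to 1.72 in cortex and 0.75 to 0.95 in thalamus.

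To use each animal once, the counts of its cortex and thalamus were summed. Pdgfd was then at 10.8 ± 2.19 CPM in ret/ret animals (SD, n = 4) and 5.32 ± 0.591 CPM in ret/wt animals (SD, n = 4). All 4 ret/ret animals lay above all 4 ret/wt animals, and the log2 fold change was 1.03 ± 0.20 (SE) with a 95% confidence interval of 0.58 to 1.48. The unadjusted p was 0.000483, rank 24 of 15505 genes, and after Benjamini-Hochberg adjustment edgeR's p was 0.283. DESeq2 gave an adjusted p of 0.00102 at a log2 fold change of 1.04, the only test tried in which a PDGF gene passed in any of the comparisons. The other 4 genes had log2 fold changes of -0.24 to -0.50, with overlapping groups. Among them Pdgfra had unadjusted p = 0.0443 at -0.31 ± 0.14 (SE), and Pdgfrb unadjusted p = 0.106 at -0.50 ± 0.28 (SE), in edgeR's quasi-likelihood test.

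**Figure D2:**
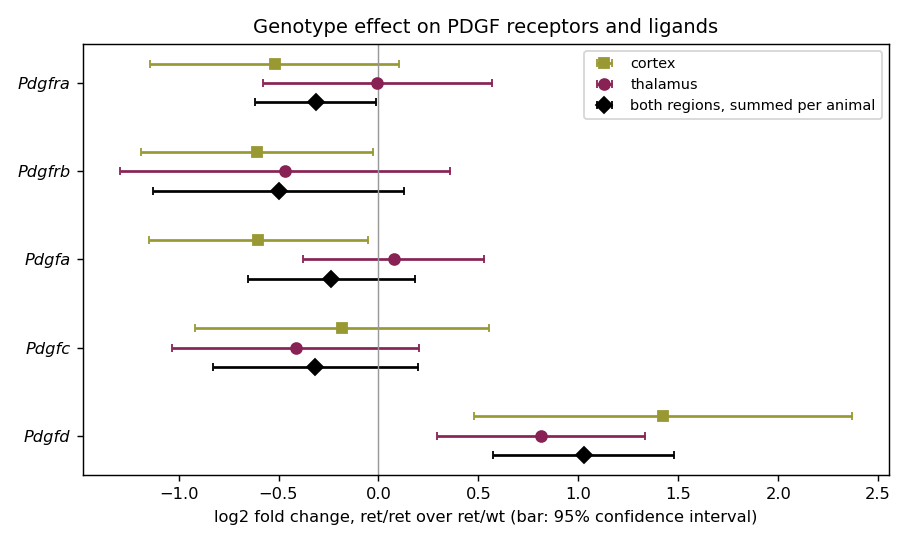
Log2 fold change of ret/ret over ret/wt (x axis, edgeR) with its 95% confidence interval as a bar, for each PDGF gene (y axis) in cortex (squares), thalamus (circles) and both regions summed per animal (diamonds), n = 4 against 4. The 3 intervals of Pdgfd lie above 0, from 0.29 at the lowest end, while most intervals of the other genes span 0.

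Against the background of all genes the counts for the PDGF genes read as follows. By genotype, edgeR's quasi-likelihood test gave no PDGF gene an adjusted p under 0.05, where 0% of 14767 genes did in thalamus, 0.0210% of 14288 (3 genes) in cortex and 0.0129% of 15505 (2 genes) in the sums. The 3 cortex genes, named here as they were the only ones, were Edn1 and Fmo2, higher in ret/ret, and Rgs5, lower. Edn1 and Rgs5 were also the 2 genes in the sums. For the thalamus, 581 genes had an unadjusted p under 0.05 and DESeq2 called 38. At an unadjusted p under 0.05 there was 1 of 5 PDGF genes in thalamus (Pdgfd), where 3.93% of all genes were. There were 3 of 5 in cortex (Pdgfrb, Pdgfa and Pdgfd) against 3.77% of all genes, and 2 of 5 in the sums (Pdgfra and Pdgfd) against 5.13%. Pdgfd kept an unadjusted p under 0.05 in each alternative setting of these fits across genes. Pdgfra did so in 7 of 20 settings for the sums, and in cortex Pdgfrb did so in 13 of 22 and Pdgfa in 17 of 22. Groups that did not overlap were found for Pdgfd alone in each of the 3 comparisons, against 2.72% of all genes in thalamus, 2.44% in cortex and 3.20% in the sums. Over 30 exact permutation tests on log2 CPM, each over 70 regroupings, Pdgfd reached p = 0.0286 in each of these 3 comparisons. That is the smallest two-sided value this design can give, and it became 0.171 after Benjamini-Hochberg adjustment over the 30 tests.

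Mural cells carry the beta receptor, and their other markers had mostly negative fold changes in ret/ret animals. Of 19 mural markers (the list of 20 without Zic1, which cerebellar neurons also carry) 18 had a negative log2 fold change in thalamus, with a median of -0.75, against -0.02 for all genes tested. In cortex 11 of 16 did, with a median of -0.44 against 0.01 for all genes. With Zic1 kept in the list, 19 of 20 were negative in thalamus, with a median of -0.72. In cortex 11 of 17 were then negative and 6 positive, with a median of -0.255. None passed an adjusted p in thalamus, and Rgs5 alone did in cortex (-1.70 ± 0.20, adjusted p = 0.041, quasi-likelihood test of edgeR, Benjamini-Hochberg). Rgs5, a regulator of G protein signalling in pericytes, was at 43.6 to 68.6 CPM in the 8 ret/wt libraries and at 13.8 to 22.6 CPM in the 8 ret/ret libraries. Among the 16 markers tested in cortex the potassium channel subunits of pericytes had the most negative values, with log2 fold changes of -2.69 for Abcc9 and -3.02 for Kcnj8, and of -1.79 and -1.71 in thalamus. The smooth muscle list had a median of 0.07 over 8 genes in thalamus and of -0.47 over the 7 genes tested in cortex.

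The summed level of the 19 mural markers was 144.2 to 207.1 CPM in ret/wt cortex, 62 to 192.4 in ret/ret cortex, 157.5 to 396.4 in ret/wt thalamus and 86.9 to 285.4 in ret/ret thalamus. Higd1b was at 0 in 2 libraries and Foxd1 in 1, and the rest were above 0 in all libraries. The ret/ret thalamus replicate 1 that held the highest Pdgfrb also held the highest mural sum of its group, 285.4 CPM, with 1246 CPM of fibroblast and 908.5 CPM of endothelial markers. Set against the median log2 fold change of the list, Pdgfrb was less negative in thalamus and more negative in cortex. The log2 level of Pdgfrb minus the mean log2 level of the 19 markers, a measure added after the data were seen, was 2.28 ± 0.18 in ret/ret animals (SD, n = 4) and 1.94 ± 0.11 in ret/wt animals (SD, n = 4) when averaged over the regions. The 4 ret/ret animals lay above the 4 ret/wt animals, with exact permutation p = 0.0286, or 0.171 after adjustment over 18 such tests. Within the regions the groups overlapped, with differences of 0.28 in thalamus and 0.40 in cortex (exact permutation p = 0.143 and p = 0.114). In cortex this measure and the median of the list thus point opposite ways. The median covers the 16 markers tested there, while the mean also takes in Higd1b, Foxd1 and Ndufa4l2. With the 16 tested markers alone the cortex difference was 0.33 (exact permutation p = 0.114), so the directions still differed. The part of the most negative markers, among them Kcnj8 and Abcc9, in the opposite directions was not tested. Set against the mean of the 8 smooth muscle genes, Pdgfrb was lower in ret/ret, by -0.50 in thalamus (exact permutation p = 0.286), -0.47 in cortex (p = 0.229) and -0.48 over both regions (p = 0.143), and the groups overlapped in all 3. Of these 8 genes 7 were tested in cortex. Cnn1 was at 0 in 1 library. On the log2 CPM scale it was at -4.26 to -1.21 in ret/wt cortex and -2.33 to 0.66 in ret/ret cortex. The part of Cnn1 in these differences was not tested.

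**Figure D3:**
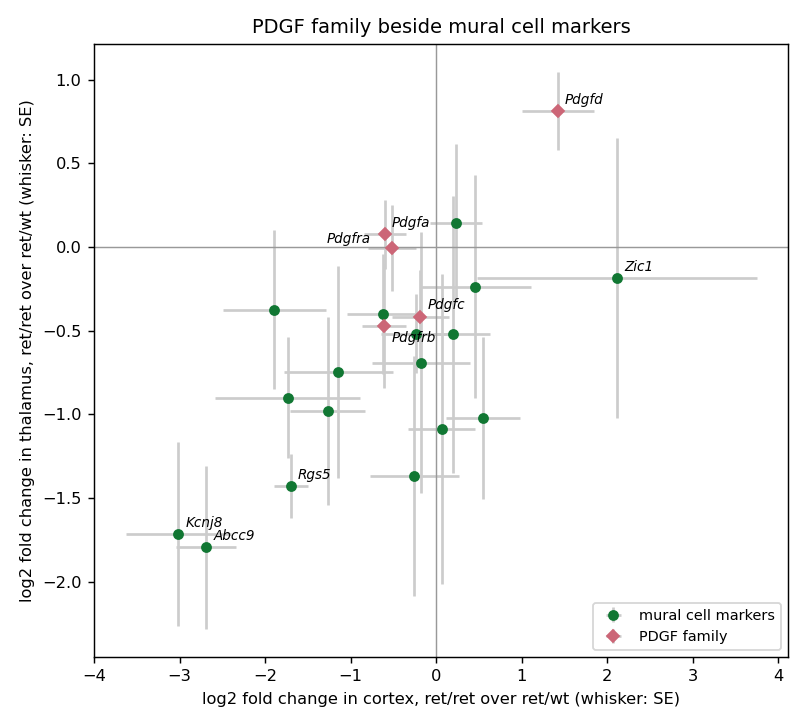
Log2 fold change of ret/ret over ret/wt in cortex (x axis) and in thalamus (y axis) for the mural cell markers tested in both regions (green circles) and the PDGF genes (red diamonds), with SE as whiskers. Rgs5, Abcc9 and Kcnj8 lie at the lower left, Pdgfrb nearer to 0 at -0.61 and -0.47, and Pdgfd at the upper right at 1.42 and 0.81.

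Endothelial markers had mostly positive fold changes. In thalamus 16 of 17 had a positive log2 fold change with a median of 0.50, and in cortex 15 of 17 with a median of 0.59, and none passed by adjusted p (edgeR). The TGF-beta co-receptor Eng had the smallest p in both, at 1.54 ± 0.31 (SE) in thalamus and 1.74 ± 0.35 (SE) in cortex. The endothelial sum was 325.8 to 449.3 CPM in ret/wt cortex, 430.8 to 763.3 in ret/ret cortex, 471 to 615.6 in ret/wt thalamus and 485.8 to 908.5 in ret/ret thalamus, and no endothelial marker was at 0 in any library. Because Pdgfd and these markers were both higher in ret/ret, Pdgfd was also set against their mean. Pdgfd minus the mean log2 level of the 17 endothelial markers was higher in ret/ret by 0.32 in thalamus (exact permutation p = 0.257), 0.77 in cortex (p = 0.229) and 0.54 over both regions (p = 0.114), and the groups overlapped in all 3. Against the 8 smooth muscle genes the differences for Pdgfd were 0.89 in thalamus (exact permutation p = 0.0571), 1.45 in cortex (p = 0.0286) and 1.17 over both (p = 0.0286), and the last 2 were 0.171 after adjustment. That list includes Cnn1, at 0 in 1 library, and Sncg, which was higher in thalamus than cortex by 4.17 on the log2 scale in ret/wt animals. The part of endothelial RNA in the Pdgfd difference was not tested further.

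Pdgfra was compared in the same way with the markers of oligodendrocyte precursors. Of the 16 precursor genes tested, 9 had a positive log2 fold change by genotype in thalamus and 7 in cortex, with medians of 0.04 and -0.13, and none passed. Pdgfra minus their mean differed between genotypes by -0.06 in thalamus (exact permutation p = 0.914) and by -0.46 in cortex (p = 0.0571). In cortex the measure was lowest in ret/ret replicate 2, at 0.82 against 1.69 to 1.86 in the other 3 ret/ret libraries and 1.83 to 2.13 in ret/wt. Fibroblast sums overlapped between genotypes in both regions, at 287.4 to 382.2 CPM in ret/wt cortex and 210.9 to 558.3 in ret/ret cortex. Pdgfra minus the mean log2 level of 17 fibroblast markers differed by 0.255 in thalamus (exact permutation p = 0.8). In cortex that difference was -0.70 (exact permutation p = 0.229), and the groups overlapped in both regions. Among fibroblast markers Dpt was at 0 in 3 libraries and Mfap5 in 2.

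The regions were compared within each genotype to see where the PDGF genes are higher. In ret/wt animals Pdgfc was lower in thalamus in all 4 animals and its groups did not overlap, with a log2 fold change of thalamus over cortex of -0.52 ± 0.24 (SE) and Benjamini-Hochberg adjusted p = 0.201 (edgeR). In ret/ret animals Pdgfc was again lower in thalamus in all 4, at -0.77 ± 0.36 (SE) with adjusted p = 0.205 (edgeR), and there the groups overlapped. Pdgfd was higher in thalamus in 3 of 4 ret/wt animals, at 0.74 ± 0.34 (SE), and in 3 of 4 ret/ret animals, at 0.11 ± 0.34 (SE). Pdgfrb was at 0.03 ± 0.30 (SE) in ret/wt and 0.14 ± 0.34 (SE) in ret/ret animals, and its sign changed when single libraries were left out. No PDGF gene had an adjusted p under 0.05 between regions, where 12.6% of 14442 genes did in ret/wt and 9.50% of 14715 in ret/ret animals. None of the 5 had an unadjusted p under 0.05 either, where 27.0% and 26.7% of all genes did. These fits had no term for the animal. Among 21 alternative settings in ret/wt animals, Pdgfc and Pdgfd each had an unadjusted p under 0.05 in 6, and Pdgfa in 2. In ret/ret animals Pdgfc did so in 4 of 21 and Pdgfd in 2. Of the 5 genes, 1 did not overlap between regions in ret/wt animals and 0 in ret/ret animals, against 20.0% and 17.5% of all genes.

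**Figure D4:**
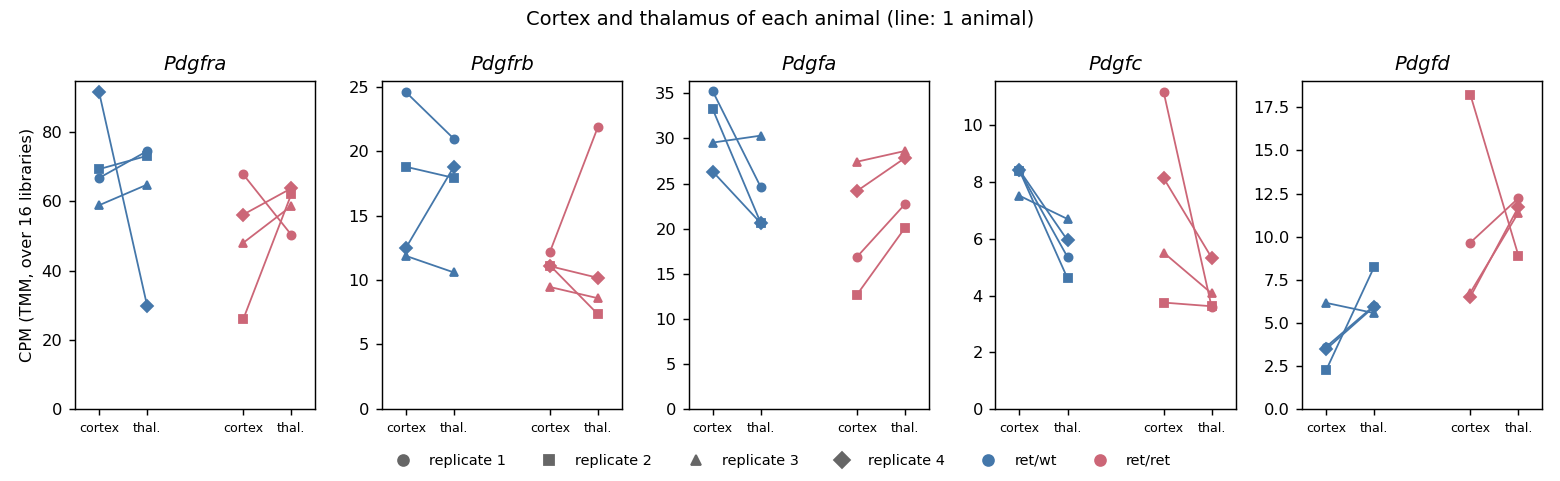
Level of each PDGF gene (y axis, CPM scaled by TMM over the 16 libraries, from 0) in the cortex and thalamus of each animal (x axis), with 1 line per animal and colour for genotype. The lines of Pdgfc fall from cortex to thalamus in all 8 animals, and those of Pdgfa rise in 4 of 4 ret/ret and 1 of 4 ret/wt animals.

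Pdgfa differed between regions in opposite directions in the genotypes. It was higher in thalamus in all 4 ret/ret animals, with a step from cortex to thalamus of 0.34 ± 0.26 on the log2 CPM scale (SD, n = 4). It was lower in thalamus in 3 of 4 ret/wt animals, with a step of -0.38 ± 0.31 (SD, n = 4). The difference of these steps was 0.72, with exact permutation p = 0.0286, the smallest possible, or 0.171 after adjustment over the 30 tests. As a term of the model over all 16 libraries the interaction of Pdgfa was 0.66 ± 0.32 (SE), with a 95% confidence interval of -0.03 to 1.35 and unadjusted p = 0.058 in edgeR's quasi-likelihood test. For the other 4 genes the interaction ran from -0.62 for Pdgfd to 0.49 for Pdgfra, with unadjusted p of 0.216 or more (edgeR). The genotype effect on Pdgfd was therefore not shown to differ between the regions. By the interaction 0% of 15286 genes had an adjusted p under 0.05, and 1.60% had an unadjusted p under 0.05, with no PDGF gene among them. DESeq2 called 4 genes.

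The other parts of PDGF signalling were read through lists that hold no PDGF gene. Of 16 genes for ligand processing and co-receptors, none passed an adjusted p by genotype (edgeR's quasi-likelihood test, Benjamini-Hochberg), with medians of 0.21 in thalamus and -0.07 in cortex. The smallest p in thalamus belonged to the proprotein convertase Pcsk6, at 0.35 ± 0.17 (SE). Of 45 receptor adaptors, kinases and phosphatases none passed, with medians of 0.03 and -0.12. There the smallest p in thalamus belonged to Spry4, a feedback inhibitor of receptor kinase signalling, at -0.61 ± 0.17 (SE). Of 27 heparan sulfate genes, which make or carry the chains that bind the PDGF-B retention motif, none passed, with medians of -0.03 and 0.02. Gpc4, a glypican, was at -1.03 ± 0.45 (SE) in cortex and the sulfatase Sulf1 at 0.75 ± 0.36 (SE) in thalamus.

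The receptors Kit, Csf1r and Flt3, of the same structural class as the PDGF receptors, were read together with their ligands. Of these 7 genes none passed by genotype in the same test, and 5 of 7 had a positive log2 fold change in each region. Csf1r, the microglial receptor for colony stimulating factor, was at 0.60 ± 0.19 (SE) in thalamus with unadjusted p = 0.00941 and at 0.13 ± 0.25 (SE) in cortex with unadjusted p = 0.613 (edgeR), and its ligand Csf1 at 0.52 ± 0.24 (SE) in thalamus and 0.44 ± 0.19 (SE) in cortex.

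Between regions several signalling genes passed. In ret/wt animals 2 of 45 adaptors, kinases and phosphatases were higher and 7 lower in thalamus, and in ret/ret animals 2 were higher and 6 lower (edgeR's quasi-likelihood test, Benjamini-Hochberg). Pik3r2, a regulatory subunit of phosphoinositide 3-kinase, was at -1.29 ± 0.22 (SE) in ret/wt animals, thalamus over cortex, and lower in ret/ret animals as well. The adaptor Gab1 was at 1.06 and 0.98. Of the 27 heparan sulfate genes 1 was higher and 5 lower in ret/wt thalamus, and 0 were higher and 5 lower in ret/ret thalamus. Ext1, which polymerises the chain, was at -1.27 and -1.17, and Gpc4 at -2.17 and -1.49. Of the precursor markers 5 were higher and 1 lower in ret/wt thalamus and 5 higher in ret/ret thalamus, with Sox10 at 1.28 and 1.56, while Pdgfra, at -0.24 and 0.25, did not pass. Each of these counts is to be read against the 12.6% of all genes that passed in ret/wt and the 9.50% in ret/ret animals, in both directions together.

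The genes whose levels ran most like each PDGF gene were ranked by Pearson's r of log2 CPM over the 16 libraries, after each region's mean was taken off, among 12772 genes. These values are a description, since libraries share animals. The difference between genotypes was left in, so genes that differ by genotype can run alike through it. Pdgfd ran most like Ttc12 (r = 0.942), Maoa (0.915), Sspn (0.901), Zc3hav1 (0.901) and Cd38 (0.884). Without the 2 libraries farthest from the median of Pdgfd these were 0.785 to 0.91. Pdgfrb ran most like Bmp7 (0.885), Wfikkn2 (0.878), Lamc3 (0.868), Entpd2 (0.843) and Olfml2a (0.839), and here r was 0.812 to 0.898 without the 2 farthest libraries. Pdgfc ran most like Phactr3 (0.885) and Zwint (0.868), at 0.881 and 0.698 without 2 libraries. The likeness lists of Pdgfra and Pdgfa rested on few libraries. Pdgfra had r = 0.935 with Scn3a and Pdgfa had r = 0.841 with Ccdc149, which became 0.725 and 0.599 without 2 libraries each, ret/ret cortex replicate 2 among them. Between PDGF genes r ran from -0.707 for Pdgfa and Pdgfd to 0.549 for Pdgfra and Pdgfa, and these became -0.378 and -0.021 without 2 libraries. Pdgfra and Pdgfc were at 0.524, and 0.562 without 2 libraries, and Pdgfra and Pdgfd at -0.519 and -0.554.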

How the data were processed

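The authors deposited expected counts per Ensembl gene, which are estimated and need not be whole, for 16 libraries. Per the submitters' processing notes kallisto 0.44.0 and GRCm38.p6 were used. Strand use and the summing of transcripts are not given in the sources used here. Expected counts were rounded, genes were filtered with filterByExpr (minimum count 10, minimum total 15), and TMM factors were applied. Each comparison was fitted on its own 8 libraries (the interaction on 16) with edgeR 4.0.16's quasi-likelihood test at its defaults in R 4.3.3, with Benjamini-Hochberg adjustment at 0.05 over all genes tested. The pipeline was tested on simulated data. Alternatives used DESeq2 1.42.0, limma 3.58.1, other scalings, filters and samples. Libraries' own values are CPM scaled over 16 libraries with prior count 1 for log2 CPM. Exact permutation tests were two-sided and went through all regroupings with numpy 2.4.6. Floors cover counting error only, and the intervals of fold changes rest on the spread among libraries.

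Labels give the cortex and thalamus library of a number in 1 genotype to the same animal. Residual correlations over the 8 such pairs were -0.017 to 0.239 (mean 0.074). Equal numbers across genotypes are different animals. Symbols came from GENCODE M21 for 21581 genes (99%).

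The PDGF genes and lists were chosen with earlier results of these data known. The 5 PDGF genes were named throughout. From other lists the genes with an adjusted p under 0.05 (up to 6) could be named, or else the 2 with the smallest p, and for likeness the 5 genes with the highest r. Not every such gene is reported here. Abcc9 and Kcnj8 in cortex and Kcnj8 in thalamus were chosen after their values were seen, as were the cerebellum list and genes given at 0. Crkl, Myh11, Olig2 and Erg were not analysed here.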

Additional observations from a re-analysis of the deposited data

Results flagged for a closer look

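Within the 20 groups of 4 libraries, 2 values lay far from the other 3 of their group by Dixon's criterion, where chance alone gives about 1 in 20. Pdgfc was at 7.52 CPM in ret/wt cortex replicate 3, below 8.40 to 8.42 CPM in the other ret/wt cortex libraries, and this library also held 845.9 CPM of cerebellum genes. Pdgfd was at 8.26 CPM in ret/wt thalamus replicate 2, above 5.56 to 6.00 CPM in the other ret/wt thalamus libraries, and still below every ret/ret thalamus library. The step of Pdgfa from cortex to thalamus differed between the genotypes by 0.719 on the log2 CPM scale (exact permutation p = 0.0286, or 0.171 after Benjamini-Hochberg adjustment over 30 tests), with the 4 ret/ret animals above the 4 ret/wt animals. With DESeq2's size factors the difference was 0.728 with exact permutation p = 0.0571. The part of the cerebellum genes in these values was not tested.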

How the results depend on the processing

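Pdgfd was higher in ret/ret under all alternatives, 21 in thalamus, 22 in cortex and 20 for the sums per animal, with an unadjusted p under 0.05 in each of these fits, and an adjusted p of 0.169 or more within the regions. It passed over all genes only with DESeq2 on the sums, at 1.04 (adjusted p = 0.00102). DESeq2 called 38 genes in thalamus, 39 in cortex, 80 in the sums, 2591 between regions in ret/ret animals and 4 for the interaction. A fit of all 16 libraries called 3 genes in thalamus and 7 in cortex, and edgeR's newer estimation, added after the data were seen, called 1 in thalamus. The planned legacy setting is the installed default and gave the reported values. Without the animals ret/wt replicate 3 and ret/ret replicate 2 the counts were 1 in cortex, 0 in the sums and 2564 between regions in ret/ret, and without the 3 cortex libraries with cerebellum or choroid plexus genes 0 in cortex. Leaving out 1 replicate gave 0 to 2 genes in cortex, 1 to 2 in the sums, 1178 to 1797 between regions in ret/wt and 627 to 2007 in ret/ret.

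With the replicate block the counts were 0 in cortex and 0 in the sums, where equal numbers are different animals. In the region comparisons, where the block pairs an animal's libraries, it changed no PDGF gene's call and moved the counts of genes by less than 1.5 times, and Pdgfrb turned to -0.003 in ret/ret and to -0.036 in the interaction. Signs also changed for values near 0. Pdgfra in thalamus was 0.059 with the block, 0.058 with limma-voom, 0.007 without the 2 animals and -0.221 to 0.096 without 1 library. The Pdgfrb interaction was -0.070 with limma-voom and -0.347 to 0.307 without 1 library. Without 1 library Pdgfrb between regions ran from -0.115 to 0.255 in ret/wt and -0.331 to 0.348 in ret/ret, Pdgfd between regions in ret/ret from -0.063 to 0.559, Pdgfc in cortex from -0.486 to 0.030 and its interaction from -0.452 to 0.055. On the log2 CPM scale Pdgfrb between regions in ret/ret was 0.015 with DESeq2's size factors and 0.065 with library size alone, and the Pdgfa interaction was 0.728 with DESeq2's size factors (exact permutation p = 0.0571). The causes were not tested. With 4 libraries a group an exact permutation test cannot give a p under 0.0286, and Pdgfd and Pdgfc, at 31 to 418 counts, were the least deeply covered.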

Other observations

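Ddx3y, which lies on the Y chromosome, stood at 55.2 to 68.7 CPM in both libraries of ret/wt replicate 3 and of ret/ret replicate 2. In the libraries of the remaining animals it did not exceed 0.219 CPM. Without these animals the log2 fold change of Pdgfd, ret/ret over ret/wt, was 0.84 in thalamus, 1.31 in cortex and 0.94 for the sums per animal. For Pdgfrb the values were -0.46 in thalamus and -0.76 in cortex, and for Pdgfa 0.30 and -0.46.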
